A study of Mus musculus with 6 samples.

Results

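Type I interferon-stimulated antiviral genes are genes that cells switch on when type I interferon is sensed, and many of their products block steps of viral replication. The set examined here holds 39 mouse genes given by symbol, of which 37 were found among the 32285 genes of the deposited feature lists. Mx1 and Mx2 matched no entry and are not analysed here. In each cell the UMIs of the members (UMIs are the molecular tags that count each captured transcript once) were summed and expressed per 10000 UMIs of that cell.

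The study compared immune cells of tumours grown inside and outside the skull. A breast cancer line derived from brain metastasis was injected either into the brain, giving the group called BrM, or into the mammary fat pad, giving the group called MFP. The hosts of both groups were female C57BL/6J mice aged 10-12 weeks, and the labels name no further allele or drug. Tumours were digested to single cells, viable CD45+ DAPI- RedDot1+ cells were sorted, and 16000 of them were loaded per library for 10x 3' v3 sequencing. Each group had 3 libraries. Nothing in the labels ties each library to its own animal. The p-values below therefore measure only the spread between these libraries, which may be technical. The tumour line is a single line, and tumour-free brain and fat pad were not analysed here.

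In this pathway type I interferons bind the receptor IFNAR, whose kinases JAK1 and TYK2 phosphorylate STAT2. Together with IRF9 it is part of the complex ISGF3, which binds the interferon-stimulated response element (ISRE) in the promoters of target genes. The products include sensors of viral RNA, enzymes that degrade or modify RNA, ubiquitin-like modifiers, membrane proteins that block entry or release of virions, and feedback regulators that damp the receptor. In tumours the same genes are widely used as a readout of interferon exposure in immune cells.

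The promoters of 5 members named in the results below are shown as examples that carry the pattern of the ISRE. Each window holds 80 bases before the start site, is written 5′ to 3′ on the strand of the gene, and comes from RefSeq on build GRCm38.p6. Capitals mark matches to the ISRE pattern, searched as a pair of GAAA with any 2 bases between them on either strand, with overlapping matches joined.
Ifit1, chr19:34640759-34640838, plus strand: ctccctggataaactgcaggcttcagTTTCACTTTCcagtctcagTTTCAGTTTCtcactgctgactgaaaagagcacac
Ifit3, chr19:34583354-34583433, plus strand: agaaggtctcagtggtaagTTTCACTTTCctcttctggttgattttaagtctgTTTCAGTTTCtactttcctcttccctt
Isg15, chr4:156200847-156200926, minus strand: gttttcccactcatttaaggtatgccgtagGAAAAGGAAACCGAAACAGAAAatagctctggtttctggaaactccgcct
Rsad2, chr12:26456529-26456608, minus strand: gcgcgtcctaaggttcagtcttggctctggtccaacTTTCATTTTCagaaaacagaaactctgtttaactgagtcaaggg
Bst2, chr8:71537556-71537635, minus strand: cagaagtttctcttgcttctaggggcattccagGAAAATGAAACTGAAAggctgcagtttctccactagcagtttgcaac

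Of the 37 members, 30 had a promoter in the RefSeq table, taken from 250 bases before to 50 after the start site. The ISRE pattern was found in a promoter of 18 of these 30, or 60%, against 3.99% of all 27025 genes with promoters of the same length. The STAT pattern TTCNNNGAA, searched on both strands like the ISRE, was found in 7 of the 30, or 23.3%, against 9.55% of these genes. Matches of the 2 patterns may overlap. Of the members called below in monocyte-like cells, Oasl1 and Isg20 had no ISRE match, and Usp18 was not among the 30. A match is a match of letters and shows no binding. In the Ifit1 and Ifit3 windows the 2 matches lie apart, whereas in the Isg15 and Bst2 windows the matches overlap into 1 run. The Ifit genes lie side by side on chromosome 19, between 34550694 (Ifit2) and 34650009 (Ifit1). Rsad2 and Cmpk2 are neighbours on chromosome 12. Ifit3 and Ifit3b, Ifit1 and Ifit1bl1, Oas1a and its Oas1 relatives, Trim30a and Trim30d, and the Slfn genes are pairs or families of related genes. Their sequences were not compared here. Counting could have split UMIs between close relatives, so values for these members are uncertain.

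The 6 libraries held 7083 to 8986 barcodes and 50692794 to 70944735 UMIs, and 6159 to 7892 cells per library were kept. BrM 1, MFP 1 and MFP 2 had the lower UMI totals and were rich in lymphoid cells, whereas BrM 2, BrM 3 and MFP 3 had the higher totals and were rich in myeloid cells. Both kinds of library occur in both groups. Comparisons of the sites within each kind are given with some classes below and again where dependence on the processing is described. Classes were named from marker genes after clustering without the members, and carry the ending "-like" for that reason. Non-immune-like cells numbered 169, and a type 2 cytokine T cluster of 657 cells and an unnamed cluster of 645 cells were kept out of the classes. Microglia-like cells numbered 11, 485 and 390 in the BrM libraries and 0 in each MFP library. Lyz2, Apoe, C1qa, C1qb and C1qc, which T cells should lack, served as a gauge of free RNA. Their sum in T-like cells was 35.5, 522 and 549 CPM (counts scaled to 1000000 UMIs of the class) in BrM and 22.7, 14.8 and 377 CPM in MFP, in replicate order. The gauge was high in the 3 myeloid-rich libraries and low in the 3 others. In T-like and NK-like cells no member was at or below the background read from this gauge in any library. That check marks only members whose whole level free RNA could account for. A partial share of free RNA in the other values was not tested. In the 34 macrophage-like cells of MFP 2, read with T and NK genes, 3 members were (Ifit3b, Ifi44 and Cmpk2).

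Across classes the members were highest in neutrophil-like and monocyte-like cells and lowest in NK-like and B-like cells. Levels are the summed member CPM of the class in a library. Transcripts were counted at their 3' end, and no length correction was applied to levels compared between genes. The mean summed level was 23791 ± 5348 CPM in neutrophil-like cells (SD, n = 3 libraries) and 14480 ± 802 in monocyte-like cells (n = 6). These 2 classes stood above all the others. Macrophage-like cells followed at 6939 ± 1007 (n = 6), conventional dendritic-like cells at 7465 ± 1950 (n = 5), microglia-like cells at 7316 ± 7.47 (n = 2) and plasmacytoid dendritic-like cells at 6722 ± 176 (n = 3). The libraries of macrophage-like and conventional dendritic-like cells overlap with those of every other class of these 4, whereas the 2 microglia-like libraries (7310 and 7321) lie above the 3 plasmacytoid dendritic-like ones (6528 to 6872). Among lymphoid cells the summed level was 3531 ± 493 CPM in T-like, 1959 ± 937 in B-like and 1734 ± 291 in NK-like cells (n = 6 each). B-like and NK-like cells did not differ beyond their spread, and T-like cells lay above the NK-like level in every library. Within the T-like class, Treg-like cells reached 5813 ± 695 and CD4 conventional T-like cells 5056 ± 900, above CD8 T-like cells at 3753 ± 665 (n = 6 each). Fcer1g-high T clusters stood at 2526 ± 168 (n = 6) and gamma-delta T-like cells at 2758 ± 777 (n = 5), which overlap.

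**Figure D1:**
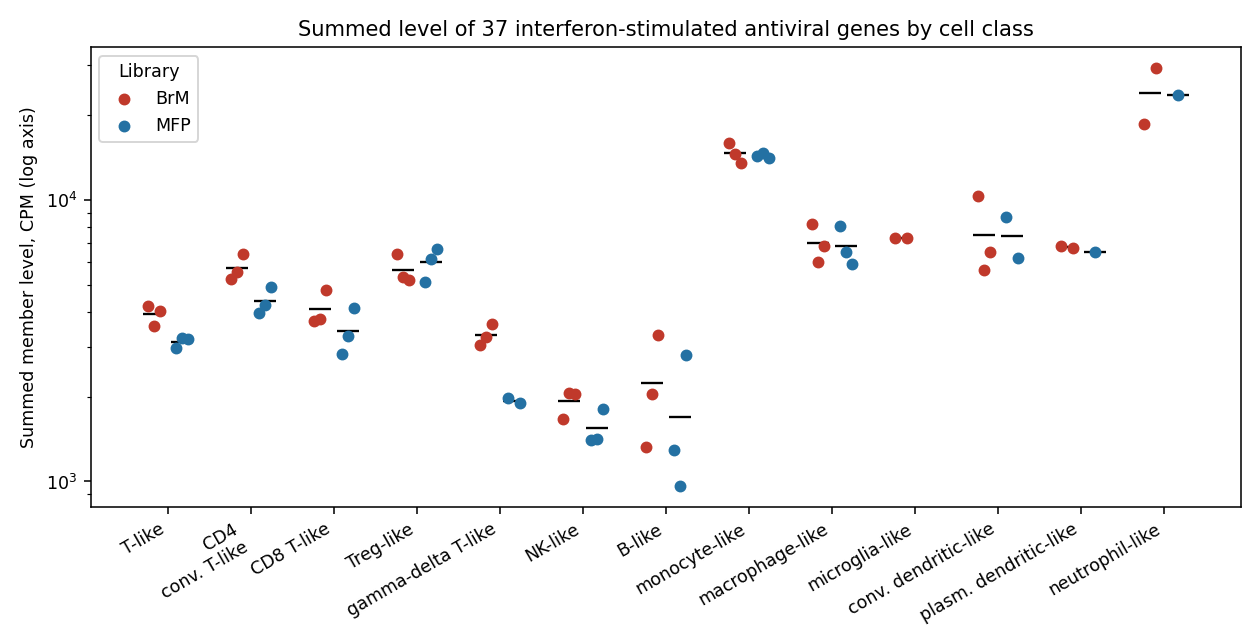
Summed level of the 37 members in CPM (log axis) for 13 classes, with one dot per library coloured by site and a bar at the mean. Neutrophil-like and monocyte-like cells lie at 13484 CPM or higher, and NK-like cells lie between 1405 and 2063 CPM.

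A few members made up most of each sum. In T-like cells Ifi27l2a, a small interferon-induced protein, led with a mean of 1166 CPM, followed by Isg15 (261), Bst2 (258), Isg20 (176) and Ifitm3 (146). Isg15 is a ubiquitin-like modifier, Isg20 an RNA exonuclease, Bst2 (tetherin) a membrane protein that holds budding virions, and Ifitm3 a membrane protein that blocks viral fusion. CD4 conventional T-like cells had the same 5 leading members, with Ifi27l2a at 2069 CPM. In Treg-like cells Ifi27l2a reached 3237 CPM and made up 55.5% of all member UMIs. NK-like cells differed in that Bst2 (163 CPM), Isg15 (146), Trim30a (131), Isg20 (114) and Parp14 (99.7) led, and Ifi27l2a stood at 64.6 CPM. B-like cells were led by Ifi27l2a at 708 CPM. In monocyte-like cells Ifitm3 alone reached 5746 CPM, or 37.9% of member UMIs, with Ifi27l2a at 2283 and Isg15 at 911. Macrophage-like cells were led by Ifitm3 (1639), Ifi27l2a (1394), Bst2 (882), Isg15 (512) and Irf7 (334). Irf7 is the transcription factor that amplifies interferon production. Conventional dendritic-like and microglia-like cells had the same 5 leaders as macrophage-like cells, with Ifitm3 at 2855 and 1639 CPM. Plasmacytoid dendritic-like cells were led by Bst2 at 3253 CPM, which was 49.1% of their member UMIs. Neutrophil-like cells were led by Ifitm3 (3608), Isg15 (3600), Rsad2 (2496), Ifit1 (2233) and Ifi27l2a (1105). Rsad2 (viperin) makes a chain-terminating nucleotide, and Ifit1 binds RNA with foreign caps.

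Members were called myeloid-leaning when their mean level in each of monocyte-like, macrophage-like and conventional dendritic-like cells was at least 2 times that in each of T-like, NK-like and B-like cells. By that rule 12 members leaned to myeloid cells, 25 were mixed and none leaned to lymphoid cells. The lowest myeloid over the highest lymphoid mean was 11.2 for Ifitm3 and 10.3 for Phf11d, far above the others. Irf7 (3.59), Oasl2 (3.10), Ifit2 (2.95), Dhx58 (2.84), Oas1a (2.63), Oas2 (2.57), Slfn5 (2.50) and Oasl1 (2.44) came next, and the remaining members were Ifih1 (2.11) and Bst2 (2.09). Oas enzymes make the oligoadenylates that activate RNase L, and Ifih1 (MDA5) and Dhx58 (LGP2) are RIG-I-like RNA receptors. Isg15 lay just outside the rule at 1.96. Ifitm3, Phf11d and Oasl2 kept at least that ratio in 5 of 5 libraries that held all 6 classes, whereas Bst2 did so in 1 of 5 and Ifih1 in 2 of 5. The members nearest to lymphoid were Ddx58, which encodes the RNA receptor RIG-I, and Isg20, whose mean myeloid level was 0.83 and 0.87 times the mean lymphoid level. Over 9 classes, 27 members were highest in neutrophil-like cells, 8 in monocyte-like cells and 2, Bst2 and Ifi44, in plasmacytoid dendritic-like cells.

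**Figure D2:**
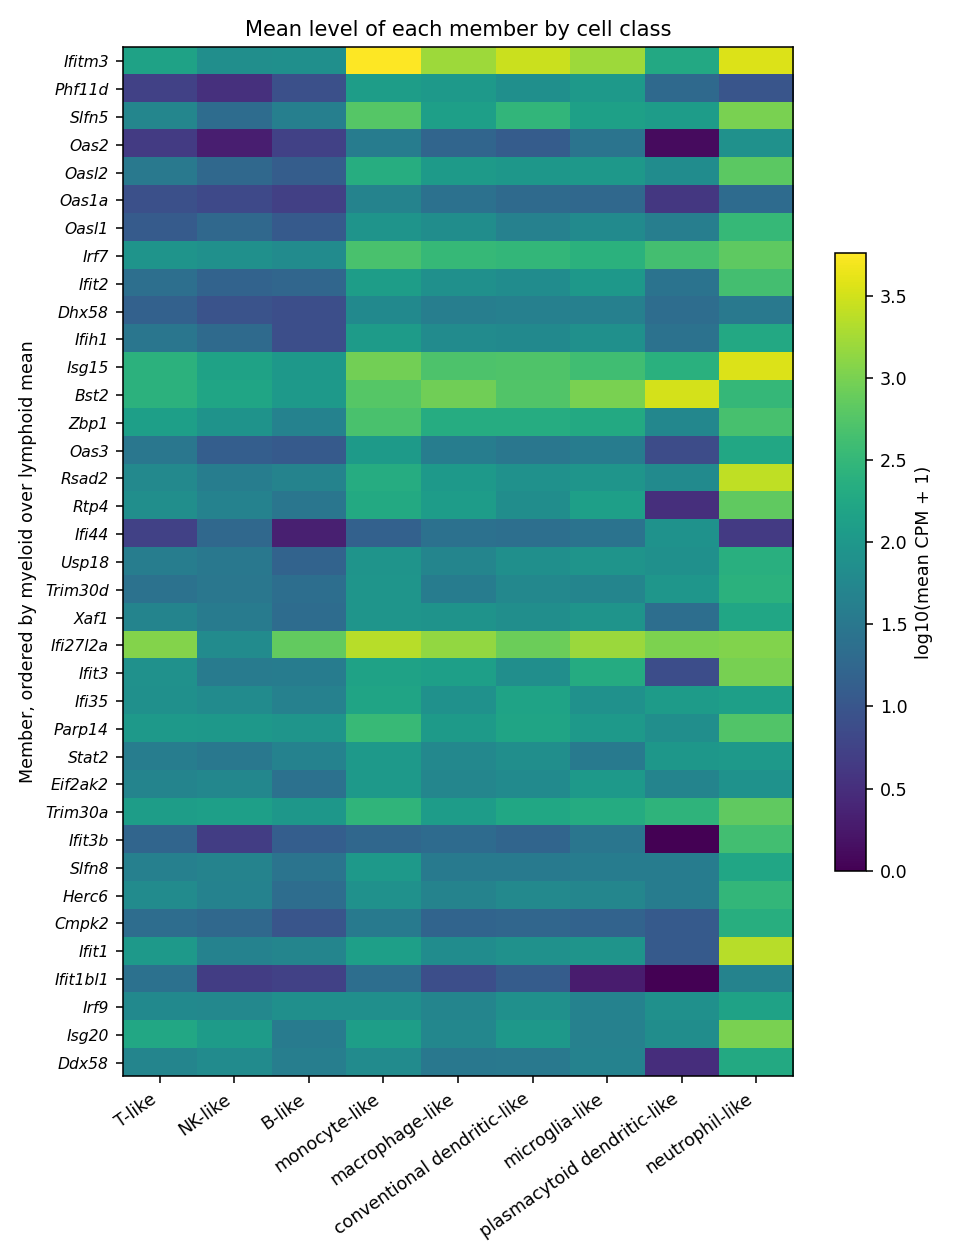
Mean level of each of the 37 members in 9 classes, as log10 of CPM plus 1, with members ordered by their mean myeloid over mean lymphoid level. Ifitm3 and Phf11d at the myeloid end have ratios of 35.3 and 21.9, and Isg20 and Ddx58 at the other end have 0.87 and 0.83.

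Within a class the cells differed widely. T-like cells held a mean of 45.7 ± 3.62 member UMIs per 10000 in BrM and 35.4 ± 3.55 in MFP (SD, n = 3), while the SD between cells of a library averaged 55.7 in BrM and 46.7 in MFP, which is larger than the mean. The median T-like cell held 25.2 ± 4.25 per 10000 in BrM and 19.3 ± 1.51 in MFP, and the 90th percentile 112 and 82.6. So the distribution was long-tailed. A cell was called member-high at 50 or more per 10000 after every cell was thinned to 2000 UMIs. That is a range on a continuous scale and not a cell type: 13.5% of T-like and 4.31% of NK-like cells lay within 10 of the limit. Member-high cells made up 25.7 ± 4.79% of T-like cells (n = 6), 8.51 ± 2.78% of NK-like, 6.10 ± 4.31% of B-like, 92.9 ± 4.71% of monocyte-like, 53.4 ± 9.23% of macrophage-like, 65.5 ± 7.41% of microglia-like (n = 2) and 57.7 ± 13.9% of conventional dendritic-like cells (n = 5). Without thinning the T-like share was 23.7% and the monocyte-like share 92.8%. Leaving Ifitm3, Bst2 and Ifi27l2a out of the sum, a choice made after seeing the data, lowered the T-like share to 12.2 ± 2.43%. The NK-like share was then 6.85 ± 1.65% and the B-like share 1.94 ± 1.44%. Thinning left out 576 T-like and 467 NK-like cells as too shallow. In neutrophil-like cells it left out 565 of 1222 cells, and their share is not compared.

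Members were often detected together in the same cells. Among T-like cells with an Ifit1 UMI, 49.3% also had an Ifit3 UMI, against 5.02% of those without (means of 6 libraries at a common depth). The lowest library with Ifit1 (45.2%) exceeded the highest without it (7.35%). The matching shares were 72.8% against 22.7% for Isg15, 38.95% against 3.46% for Rsad2, and 31.4% against 3.62% for Usp18, a protease that removes Isg15 and damps the receptor. Members that are present in many cells separated less. Bst2 was found in 59.0% against 31.0% and Ifi27l2a in 73.9% against 56.7%. Irf9, a subunit of ISGF3, was found in 21.8% against 11.8%. In NK-like cells the shares were 65.9% against 14.8% for Isg15, 45.5% against 3.07% for Rsad2 and 41.0% against 2.76% for Ifit3. There Ifi27l2a was found in 10.4% against 8.53% of cells and its libraries overlapped. These shares come from cells thinned to 2000 UMIs each and are a description with no test.

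**Figure D3:**
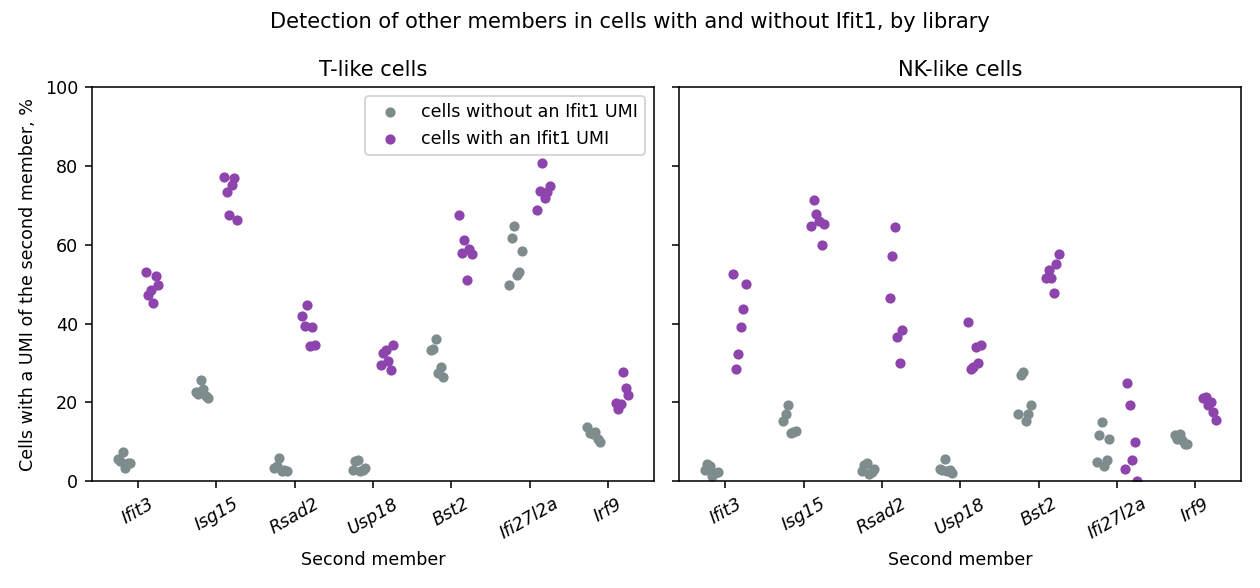
Percent of T-like and NK-like cells with a UMI of a second member, among cells with and without an Ifit1 UMI, one dot per library. For Ifit3, T-like cells lie between 45.2% and 53.1% with Ifit1 and between 3.19% and 7.35% without it.

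Genes outside the set also differed between member-high and other cells. Of 18 further interferon-induced genes, 15 were at least 1.5 times higher in member-high T-like cells in all 6 libraries, against 2.12% of all 7086 genes measured. Examples are Parp12 (mean 33.9 CPM in member-high against 6.18 in other cells), Ddx60 (66.9 against 11.7) and Iigp1 (185 against 32.1), an interferon-induced GTPase of the gamma-biased list. Of the 10 measured interferon-gamma-biased genes, 9 were higher by that rule. Of 7 measured sensing genes Samhd1 and Adar were. In NK-like cells the counts were 14 of 18 further interferon-induced, 9 of 10 gamma-biased and 1 of 8 sensing genes (Samhd1), against a background of 1.91%. CD4 conventional and CD8 T-like cells had 14 and 13 of 18 further interferon-induced and 7 and 9 of 10 gamma-biased genes higher. Fewer were higher in Treg-like cells, at 8 of 18, 3 of 10 and 1 of 7 sensing genes. In macrophage-like cells (4 libraries) the counts were 9 of 17, 3 of 12 and 0 of 9, in that order. In microglia-like cells (2 libraries) they were 7 of 16, 2 of 9 and 2 of 11. The share over all genes is not given for these further classes. None of these 3 lists had a gene that was lower by the same rule in any of these classes. Member-high cells were chosen by member values of the same cells, so these counts describe the high cells and are not independent support.

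BrM T-like cells had the higher summed member level, with libraries that did not overlap. The 3 BrM libraries held 4192, 3564 and 4037 CPM and the 3 MFP libraries 2970, 3226 and 3196. The mean was 3931 ± 327 against 3131 ± 140 CPM (SD, n = 3 each). The share of member-high cells was 27.2%, 27.2% and 33.3% in BrM and 20.2%, 21.1% and 24.9% in MFP. The groups do not overlap in that share either. The mix of T-like subsets also differed: the Fcer1g-high clusters, at a mean of 2526 CPM, held 854 of 4217, 808 of 2579 and 1010 of 2915 T-like cells in BrM and 1260 of 3341, 1488 of 4464 and 641 of 1342 in MFP. The part of this mix in the T-like difference was not tested. Of 37 members tested with edgeR's quasi-likelihood test, none passed an adjusted p of 0.05 (0% of all 12531 genes did), 12 had an unadjusted p under 0.05, all higher in BrM, and DESeq2 called 2 (over all genes 0.303% higher and 0.343% lower). By edgeR over all genes 4.88% were higher and 5.48% lower at that unadjusted p. The median log2 difference of the members was 0.26, against 0.00 over all genes, and 36 of 37 had a positive sign. Libraries did not overlap for 10 members, all higher in BrM (over all genes 6.41% were higher and 10.9% lower in this way). Phf11d stood at 4.92, 5.61 and 6.38 CPM in BrM and 2.67, 2.75 and 3.40 in MFP, a log2 difference of 0.98 ± 0.19 (SE, edgeR adjusted p = 0.439). Ifitm3 stood at 276, 166 and 152 CPM in BrM and 88.9, 70.6 and 123 in MFP, a log2 difference of 1.11 ± 0.26 (edgeR adjusted p = 0.439). For both genes the BrM libraries lie above every MFP library. Usp18, Isg20 and Cmpk2 had log2 differences of 0.54, 0.42 and 0.63, and Cmpk2 is a mitochondrial nucleotide kinase that shares its neighbourhood with Rsad2. Oas2 was the 1 member with a negative sign. Fitted within each kind of library, which compares 1 against 2 libraries and assumes that the lone library varies like the others, 9 members were called in the lower-total libraries and 8 in the higher-total ones, each higher in BrM (over all genes 2.8% higher and 2.19% lower, and 6.03% higher and 4.63% lower).

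In CD4 conventional T-like cells, a subset of the T-like class, the BrM libraries were also the higher ones. Their summed level was 5240, 5552 and 6426 CPM in BrM and 3960, 4239 and 4918 in MFP, and their member-high share was 35.7%, 41.5% and 48.8% against 25.4%, 27.4% and 34.1%. Both sets of values leave the groups apart. edgeR called none of 37 members (0.00999% of all 10012 genes), 23 had an unadjusted p under 0.05, all higher in BrM (over all genes 8.14% higher and 7% lower), and DESeq2 called 10 (0.729% of all genes higher). The median log2 difference was 0.44, and it was 0.42 within the lower-total and 0.50 within the higher-total libraries. Libraries did not overlap for 20 members, all higher in BrM (over all genes 6.42% higher and 17.7% lower). Ifitm3 stood at 529, 288 and 201 CPM in BrM and 68.4, 72.9 and 69.3 in MFP, a log2 difference of 2.37 ± 0.31 (SE, edgeR adjusted p = 0.0543). BrM 1 was the highest library for it. Usp18 stood at 36.2, 46.4 and 49.8 CPM against 23.5, 23.9 and 24.0 (log2 0.96 ± 0.15, edgeR adjusted p = 0.111). Rsad2, Ifit3 and Bst2 had log2 differences of 0.98, 0.70 and 0.63, with the same adjusted p. Without BrM 1 edgeR called 8 members, each higher in BrM, against 1.11% of all genes higher and 0.625% lower. A single cluster made up 73.4%, 59.6% and 54.9% of these BrM cells, against 42.1%, 54.6% and 50.8% of the MFP cells. Within it the summed level was 5947, 6526 and 7754 CPM in BrM and 4343, 4634 and 7290 in MFP, so there the groups overlapped.

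CD8 T-like cells had a summed level of 4083 ± 590 CPM in BrM and 3423 ± 656 in MFP, with overlapping libraries. edgeR called none of 37 members (0% of all 9914 genes), 7 had an unadjusted p under 0.05, all higher in BrM (over all genes 3.3% higher and 2.99% lower), and DESeq2 called none. Libraries did not overlap for 2 members, both higher in BrM (over all genes 4.37% higher and 8.34% lower). Rtp4, a receptor transporter protein, stood at 78.7, 78.6 and 103 CPM in BrM and 62.5, 68.1 and 65.8 in MFP (log2 0.46 ± 0.15, SE, edgeR adjusted p = 0.787). Usp18 and Isg20 had log2 differences of 0.64 and 0.54, Phf11d 0.86 and Cmpk2 0.65. In the lower-total libraries the median log2 difference was 0.45. In the higher-total libraries it was -0.09, so the direction in CD8 T-like cells was not the same in both kinds of library. In the largest cluster the summed level was 4977, 4279 and 5155 CPM in BrM and 3924, 4650 and 5007 in MFP. In another it was 2008, 4112 and 3894 against 1842, 1876 and 2784, higher in BrM within each kind of library. A smaller cluster made up 2.02%, 33.6% and 6.71% of the BrM cells and 24.8%, 17.1% and 6.55% of the MFP cells. It held 3102 and 4301 CPM in BrM 2 and 3 and 2037 and 1757 in MFP 1 and 2. The part of this mix was not tested.

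Treg-like cells had summed levels of 5634 ± 678 CPM in BrM and 5992 ± 806 in MFP, with overlapping libraries and the higher mean in MFP. The mean per cell had the opposite sign at 73.6 ± 7.67 per 10000 in BrM and 60.4 ± 3.74 in MFP, as did the member-high share, at 55.5%, 50.2% and 53.2% against 41.4%, 45.9% and 48.0%. The groups do not overlap in that share. edgeR called none of 33 members tested (0.0908% of all 7708 genes), 1 had an unadjusted p under 0.05 in each direction (background 10.9% higher and 9.68% lower), and DESeq2 called none. No member had libraries that did not overlap (over all genes 11.8% higher and 15.6% lower in BrM). Herc6, an E3 ligase for Isg15 in mice, stood at 48.9, 35.5 and 35.1 CPM in BrM and 46.6, 65.5 and 100 in MFP (log2 -0.68 ± 0.26, SE, edgeR adjusted p = 0.172), with 1 MFP library inside the BrM range. Bst2 had a log2 difference of 0.48, and Slfn8, Parp14 and Stat2 of -0.48, -0.41 and -0.42. In the higher-total libraries 6 members were called, all lower in BrM (over all genes 7.99% higher and 4.15% lower). The class held a pair of clusters. In the larger one the summed level was 7483, 7055 and 8939 CPM in BrM and 6374, 6614 and 6895 in MFP, so there BrM was higher with no overlap. The smaller one, at 3713, 3079 and 2808 CPM in BrM and 3065 in MFP 1, made up 12.2%, 17.2% and 26.8% of the BrM cells and 17.3%, 1.52% and 4.86% of the MFP cells. Gamma-delta T-like cells held 3042, 3267 and 3609 CPM in BrM and 1971 and 1903 in MFP 1 and 2, with no overlap, and MFP 3 held 18 such cells and gives no value.

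NK-like cells had summed levels of 1923 ± 220 CPM in BrM and 1544 ± 235 in MFP, with libraries of 1670, 2063 and 2037 against 1405, 1412 and 1815, which overlap. Shares of member-high cells were 7.46%, 12.0% and 11.9% against 6.10%, 5.80% and 7.77%. BrM 1 lies inside the MFP range. edgeR called none of 36 members (0% of all 10675 genes), 13 had an unadjusted p under 0.05, all higher in BrM (over all genes 5.7% higher and 4.07% lower), and DESeq2 called 3 (0.44% of all genes higher). The median log2 difference was 0.37, and libraries did not overlap for 8 members, all higher in BrM (over all genes 7.53% higher and 10.5% lower). Within the lower-total libraries that median was 0.27, and within the higher-total ones 0.26. Ifit3 stood at 39.8, 47.4 and 42.1 CPM in BrM and 20.3, 28.1 and 33.8 in MFP, a log2 difference of 0.72 ± 0.18 (SE, edgeR adjusted p = 0.41). Rsad2 stood at 37.2, 67.2 and 42.1 CPM against 24.0, 24.3 and 33.4 (log2 0.89 ± 0.23). For both genes all BrM libraries lie above all MFP libraries. Ifit1bl1, Cmpk2 and Isg15 had log2 differences of 1.23, 0.68 and 0.47. Without BrM 1 edgeR called 5 members, each higher in BrM, against 2.24% of all genes higher and 1.36% lower. One cluster held 53.1% and 67.8% of the NK-like cells in BrM 2 and 3 and 22.3% to 25.7% elsewhere. Within it the summed level was 1560, 1909 and 2049 CPM in BrM and 1331, 1332 and 1539 in MFP.

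B-like cells were few, with 59 and 82 in BrM 2 and 3 and 55 in MFP 3. Their summed level was 2227 ± 1006 CPM in BrM and 1690 ± 983 in MFP. edgeR called none of the 20 members tested (0% of all 5142 genes), 1 had an unadjusted p under 0.05, higher in BrM (over all genes 3.83% higher and 3.01% lower), and DESeq2 called none. No member had libraries that did not overlap (over all genes 7.14% higher and 7.97% lower). Ifi27l2a stood at 451, 822 and 1563 CPM in BrM and 459, 408 and 547 in MFP (log2 1.03 ± 0.33, SE, edgeR adjusted p = 0.647), with BrM 1 inside the MFP range. Bst2, Rtp4, Ifi35 and Eif2ak2 had log2 differences of 0.65, 0.89, 0.45 and 0.53. The median log2 difference of the members was 0.45 over all libraries, 0.37 within the lower-total and -0.30 within the higher-total ones. Eif2ak2 (PKR) is a kinase that stops translation on sensing double-stranded RNA. Apoe UMIs in B-like cells moved with the library, at 953, 2088 and 3613 CPM in BrM and 539, 504 and 1095 in MFP, and their part in these values was not tested. With Apoe left out of the free RNA gauge, 2 to 6 members per library were at or below background in B-like cells.

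Monocyte-like cells were the 1 class in which members passed the test. Their summed level differed by less than the spread between libraries, at 14620 ± 1217 CPM in BrM and 14339 ± 259 in MFP, but 3 of 37 members rose in BrM, against 0.697% of all 6599 genes called higher and 0.985% called in either direction. In all 9 had an unadjusted p under 0.05, each higher in BrM (over all genes 6.2% higher and 6.08% lower), and DESeq2 called 4 (over all genes 0.833% higher and 0.409% lower). Libraries did not overlap for 7 members higher and 1 lower in BrM (over all genes 6.29% and 11.3%). Oasl1, an OAS-like protein that limits Irf7 translation, stood at 110, 101 and 128 CPM in BrM and 61.4, 60.5 and 65.0 in MFP, a log2 difference of 0.90 ± 0.18 (SE, edgeR adjusted p = 0.0352). Isg20 stood at 180, 153 and 147 CPM in BrM and 87.8, 117 and 81.9 in MFP, a log2 difference of 0.86 ± 0.18 (edgeR adjusted p = 0.0384). Usp18 stood at 121, 143 and 96.8 CPM against 45.6, 45.4 and 72.9, a log2 difference of 1.05 ± 0.22 (edgeR adjusted p = 0.0405). For these 3 genes every BrM library lies above every MFP library. Isg15 stood at 1267, 1015 and 923 CPM against 753, 764 and 748 (log2 0.55, edgeR adjusted p = 0.110), and Ifit1 at 208, 219 and 143 against 45.6, 18.9 and 157 (log2 1.06, edgeR adjusted p = 0.268). The Isg15 libraries do not overlap, whereas the Ifit1 libraries do. Ifitm3, the largest member, stood at 5898, 5466 and 4943 CPM in BrM and 6235, 6717 and 5219 in MFP, which overlap. MFP 1 and MFP 2 held 60 and 28 of the cells. Without BrM 2, MFP 1 or MFP 2, edgeR called none of these 3 members. The share of member-high cells was 90.9%, 90.1% and 86.9% in BrM and 100%, 96.4% and 93.2% in MFP. When Ifitm3, Bst2 and Ifi27l2a are left out of the sum, a choice made after seeing the data, the shares become 56.1%, 45.9% and 40.7% against 40.7%, 32.1% and 43.0%, so the sign of the difference turns.

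**Figure D4:**
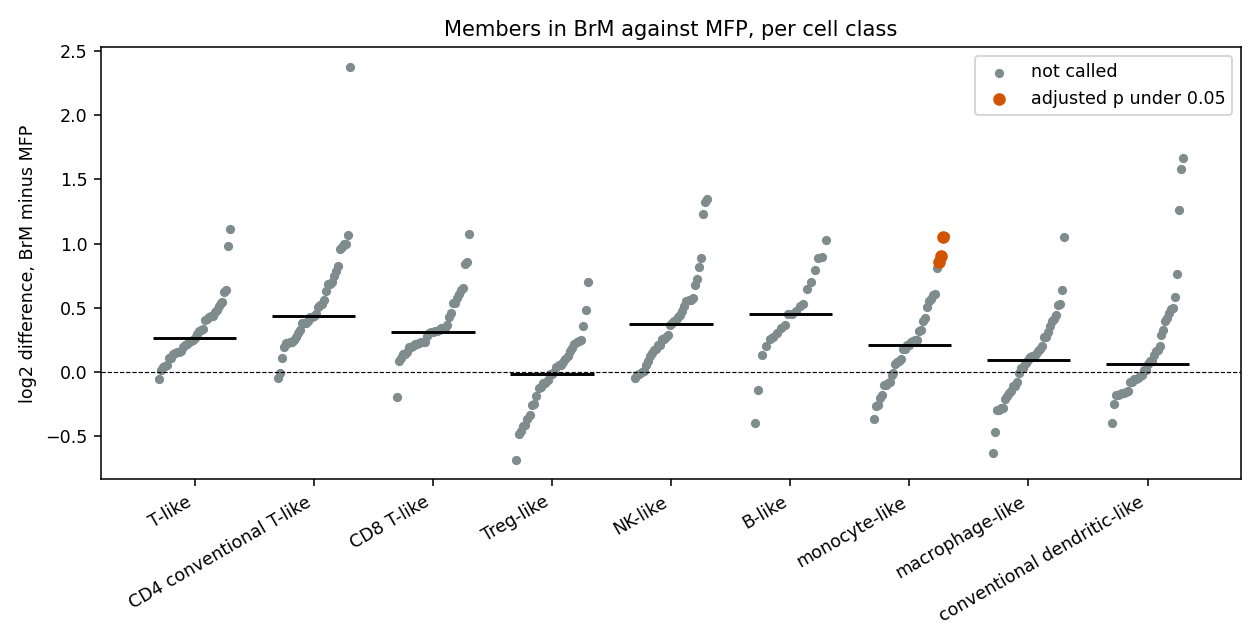
Log2 difference between BrM and MFP of each member tested in 9 classes, one point per member with a bar at the median, and orange points for members with an edgeR adjusted p under 0.05. The median is 0.44 in CD4 conventional T-like cells and -0.02 in Treg-like cells, and the 3 called members lie in monocyte-like cells.

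Macrophage-like cells had summed levels of 7035 ± 1109 CPM in BrM and 6844 ± 1130 in MFP. edgeR called none of 37 members, against 3.5% of all 11220 genes (0.793% higher), 5 had an unadjusted p under 0.05 (3 higher and 2 lower, background 5.6% and 9.77%), and DESeq2 called none. Libraries did not overlap for 2 members higher and 4 lower in BrM (over all genes 4.8% and 6.48%). Oas2 stood at 14.95, 11.7 and 13.3 CPM in BrM and 22.6, 12.4 and 21.7 in MFP (log2 -0.63 ± 0.17, SE, edgeR adjusted p = 0.0522), with MFP 2 inside the BrM range. Isg20 stood at 112, 50.3 and 59.6 CPM against 62.5, 18.5 and 26.2 (log2 1.05 ± 0.34, edgeR adjusted p = 0.121). Usp18 had a log2 difference of 0.53, Ifit1bl1 of 0.64 and Stat2 of -0.46, and only Stat2 and Usp18 of these 5 had libraries that did not overlap. BrM 1, MFP 1 and MFP 2 held 54, 86 and 34 macrophage-like cells, against 2059 and 1933 in BrM 2 and 3 and 2490 in MFP 3. In the higher-total libraries alone 17 members were called higher and 3 lower, against 12.1% and 11.5% of all 13055 genes. A single cluster made up 56.5% and 61.7% of the macrophage-like cells of BrM 2 and 3, against 12.8% for MFP 3. Within it the summed level was 7233 and 7974 CPM in BrM 2 and 3 and 8916 and 8813 in MFP 1 and 3, so there MFP was higher. A cluster with 30.6% and 24.2% of the cells of BrM 2 and 3 and 36.9% of those of MFP 3 went the other way, at 3717 and 4346 against 3566 CPM. So did a pair of smaller clusters, at 10617 and 10668 against 8669 CPM and at 4216 and 4885 against 3589 CPM. Another cluster held 55.6%, 39.5% and 76.5% of the macrophage-like cells of BrM 1, MFP 1 and MFP 2. Its groups overlapped, at 8809, 5168 and 5530 CPM in BrM and 8441, 5574 and 5262 in MFP. A further cluster held 23.5% of the cells of MFP 3, at 7781 CPM, and 0.486% and 0.259% of those of BrM 2 and 3.

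Conventional dendritic-like cells were compared in 3 BrM libraries and in MFP 1 and 3, since MFP 2 held 15 cells. Their summed level was 7475 ± 2456 CPM in BrM and 7450 ± 1771 in MFP (n = 3 and 2). A single cluster made up 74.8%, 57.6% and 55.6% of the BrM cells and 83.6% and 71.8% of the MFP cells. Within it the level was 12601, 7190 and 8772 CPM in BrM and 10319 and 7379 in MFP. A cluster at 4909, 4144 and 4264 CPM in BrM stood at 2321 in MFP 3. Another was at 2854 and 3149 CPM in BrM 2 and 3 and 4951 in MFP 3. The part of this mix in the summed level was not tested. edgeR called none of 37 members (0% of all 9696 genes), 6 had an unadjusted p under 0.05, all higher in BrM (over all genes 3.06% higher and 3.96% lower), and DESeq2 called 1 (0.0413% of all genes higher). Oasl1 stood at 45.2, 71.5 and 62.7 CPM in BrM and 17.5 and 21.0 in MFP, a log2 difference of 1.66 ± 0.27 (SE, edgeR adjusted p = 0.586). Its lowest BrM library is above both MFP libraries. Usp18, Ifit1, Isg20 and Ifi44 had log2 differences of 0.77, 1.26, 0.59 and 1.58. Libraries did not overlap for 8 members, all higher in BrM (over all genes 10.4% higher and 14.9% lower). Within microglia-like cells, which had no MFP counterpart, no comparison of the sites was possible.

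The other pathway genes were counted in the same fits, from lists of interferon signalling, nucleic acid sensing, other interferon-induced and interferon-gamma-biased genes. edgeR called none of them in any class. In T-like cells 5 of the 12 gamma-biased genes had an unadjusted p under 0.05, all higher in BrM (over all genes 4.88% higher and 5.48% lower). In CD4 conventional T-like cells 7 of 11 did, all higher in BrM (over all genes 8.14% higher and 7% lower). The list medians were 0.39 and 0.61. In CD8 T-like, NK-like, B-like and monocyte-like cells the list median was 0.41, 0.36, 0.92 and 0.41. It was negative in Treg-like (-0.14), macrophage-like (-0.07) and conventional dendritic-like cells (-0.17). Of the 18 other interferon-induced genes, 7 were higher and 0 lower at that p in CD4 conventional T-like cells (median 0.29). In T-like cells 3 were higher and 1 lower (0.08). In Treg-like cells 0 were higher and 2 lower (-0.20, over all genes 10.9% and 9.68%). In macrophage-like cells 0 were higher and 3 lower (-0.02, over all genes 5.6% and 9.77%). Signalling and sensing list medians were -0.0016 and 0.10 in T-like and 0.02 and 0.12 in CD4 conventional T-like cells. Igtp, an interferon-induced GTPase, stood at 295, 203 and 238 CPM in BrM and 155, 143 and 122 in MFP CD4 conventional T-like cells (log2 0.90, edgeR adjusted p = 0.111). In NK-like cells it stood at 90.3, 108 and 122 against 57.3, 52.4 and 64.5 (log2 0.92, edgeR adjusted p = 0.41). In both classes BrM and MFP libraries do not overlap for Igtp. Ifnar1, a chain of the type I interferon receptor, stood lower in BrM NK-like cells, at 37.9, 31.3 and 30.2 CPM against 53.8, 52.1 and 53.9 (log2 -0.62, edgeR adjusted p = 0.41), and these libraries do not overlap. Transcripts of the type I interferons on the list were scarce. Ifnb1 had 422 UMIs in all, 368 of them in macrophage-like and 48 in microglia-like cells, found in BrM 2 (104), BrM 3 (54) and MFP 3 (264).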

How the data were processed

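Libraries of CD45+ cells were deposited as raw UMI counts, made by the authors with Cell Ranger 4.0 on mm10, per the submitters' processing notes. Depth was 50692794 to 70944735 UMIs per library, and intervals cover counting error only. Barcodes with at least 500 UMIs, 200 genes and at most 10% mitochondrial UMIs were kept. Because the doublet caller Scrublet marked 0.0125 to 2.77% of cells, the 7% with the highest score were removed per library. Libraries shared 10 to 39 barcodes in pairs. Cells were clustered with scanpy 1.11.5 on 2000 variable genes, without the members and listed interferon genes, and named from markers. Counts summed per library and class (at least 20 cells) were tested with edgeR 4.0.16 (TMM, Benjamini-Hochberg over all genes tested, threshold 0.05), without a replicate term. DESeq2 1.42.0 was an alternative, with other scalings, filters, limits, libraries left out and fits within kinds of library. Shares used cells thinned to 2000 UMIs. Members and lists were chosen with earlier results of these data known. Named in each comparison are the called members and, up to 5, those of lowest p. By level the 5 highest members of a class are named, and of each pathway list at most 5 genes by lowest p. The tests were checked on simulated data. Gene positions come from GENCODE vM21 on GRCm38, the assembly that mm10 names. One gene of the signalling list is not reported here.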

Additional observations from a re-analysis of the deposited data

Results flagged for a closer look

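Herc6 had mean levels in opposite order at the 2 sites in 2 myeloid classes. In monocyte-like cells its mean was 94.1 CPM in BrM and 62.5 in MFP, a ratio of 1.51. In macrophage-like cells it was 38.6 CPM in BrM and 57.1 in MFP, a ratio of 0.677. Every library of one site lay above every library of the other in each class. Neither passed edgeR's test, with log2 differences of 0.50 ± 0.23 (SE, adjusted p = 0.393) and -0.28 ± 0.23 (adjusted p = 0.635), and the difference between the classes was not tested.

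The share of member-high cells also went in opposite directions. In T-like cells it was 7.16 percentage points higher in BrM than in MFP. In monocyte-like cells the same difference was -7.26 percentage points. The libraries of the sites did not overlap in either class. The monocyte-like shares lay between 86.9% and 100%, and the sign of their difference turned to 8.93 points without Ifitm3, Bst2 and Ifi27l2a and to 2.36 points at 3 times the class median. The difference between the classes was not tested.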

How the results depend on the processing

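Small numbers of cells limit B-like, monocyte-like, macrophage-like and conventional dendritic-like cells in the lymphoid-rich libraries, and 3 libraries per site limit every test. Where a fit leaves an arm with 1 library, that library is assumed to vary like the others. No fit within the lower-total libraries exists for conventional dendritic-like cells. Counts below are members called, and edgeR called 0 in every class but monocyte-like (3). DESeq2 called 2 in T-like, 10 in CD4 conventional T-like, 3 in NK-like, 4 in monocyte-like and 1 in conventional dendritic-like cells, each higher in BrM. Over all genes it called 0.646%, 1.27%, 0.581%, 1.24% and 0.175%, in that order. With no filter on low counts 10, 1, 3, 6 and 3 were called in CD4 conventional T-like, NK-like, B-like, monocyte-like and conventional dendritic-like cells. Over all genes 1.12%, 0.215%, 0.44%, 1.77% and 0.245% were called, in that order. Each of these members was higher in BrM except 2 of those in B-like cells. DESeq2 size factors in edgeR gave 1 in macrophage-like cells, lower in BrM, against 3.73% of all genes. A term for UMI total gave 3 in T-like, 11 in CD4 conventional T-like, 3 in NK-like, 5 in monocyte-like, 4 in macrophage-like and 4 in conventional dendritic-like cells. Over all genes 2.63%, 3.27%, 0.815%, 2.14%, 8.24% and 1.75% were called, in that order. Of these members 1, in macrophage-like cells, was lower in BrM. At least 50 cells per library gave 0 in monocyte-like cells. Within the lower-total libraries 9, 20, 19, 13, 1 and 8 were called in T-like, CD4 conventional T-like, CD8 T-like, NK-like, B-like and monocyte-like cells. These lower-total fits rest on BrM 1 as the lone BrM library, so their counts cannot be set against those of the full fit. Within the higher-total libraries the median log2 difference of the members was 0.30 in T-like, 0.50 in CD4 conventional T-like and 0.26 in NK-like cells. In monocyte-like, macrophage-like and conventional dendritic-like cells it was 0.10, 0.26 and 0.18. It was negative in CD8 T-like (-0.09), Treg-like (-0.42) and B-like cells (-0.30). Deviations of same-numbered libraries had correlations of 0.38, -0.52 and 0.49 in T-like cells and 0.55, -0.31 and 0.28 in NK-like cells, in replicate order. BrM 2 and MFP 2, the pair with the negative values, are of different kinds of library. These values therefore cannot tell whether the numbers pair samples. The replicate block gave 1 called member in CD4 conventional T-like and 1 in macrophage-like cells, both higher in BrM, against 0.04% and 1.44% of all genes.

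Leaving out each library in turn gave 0 to 0 called members in T-like, 0 to 8 in CD4 conventional T-like, 0 to 0 in CD8 T-like, 0 to 1 in Treg-like, 0 to 5 in NK-like, 0 to 3 in B-like, 0 to 3 in monocyte-like, 0 to 2 in macrophage-like and 0 to 1 in conventional dendritic-like cells. Without BrM 1 the counts were 8 in CD4 conventional T-like, 5 in NK-like, 3 in B-like, 2 in monocyte-like, 1 in macrophage-like and 1 in conventional dendritic-like cells, all higher in BrM. Over all genes 1.74%, 3.6%, 5.41%, 1.51%, 4.49% and 0.581% were called, in that order. Without MFP 1 the counts were 1 in Treg-like and 2 in macrophage-like cells, against 8.62% and 7.03% of all genes. The Treg-like member and 1 of the macrophage-like members were lower in BrM. Without BrM 3 the counts were 1 in CD4 conventional T-like and 1 in monocyte-like cells, against 0.0374% and 0.308% of all genes. The log2 ratio of the summed level ranged from 0.28 to 0.39 in T-like, 0.25 to 0.45 in NK-like, -0.0042 to 0.98 in B-like, -0.04 to 0.08 in monocyte-like, -0.09 to 0.18 in macrophage-like and -0.29 to 0.27 in conventional dendritic-like cells. The difference in member-high share ranged from 5.11 to 8.58 points in T-like, 3.14 to 5.40 in NK-like, 2.47 to 6.88 in B-like, -8.93 to -5.53 in monocyte-like, -8.00 to 4.02 in macrophage-like and -11.8 to 6.56 in conventional dendritic-like cells.

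The summed level ratio of T-like cells was 0.33 and within the lower-total libraries 0.44. For monocyte-like cells it was 0.03, but 0.25 without Ifitm3, Bst2 and Ifi27l2a, 0.33 as a mean of log2(CPM + 1) and 0.14 within the lower-total libraries. The share difference of T-like cells was 7.16, and 4.001 at a limit of 100 and 3.88 without those 3 genes, a setting chosen after seeing the data. For NK-like cells it was 3.90, but 6.77 at a limit of 30, 0.647 at 100 and 6.77 at 3 times the class median. For B-like cells it was 4.76, and 8.95 both at 30 and at 3 times the median. For monocyte-like cells it was -7.26, and -3.76 at 30, -3.99 at 100, 2.36 at 3 times the median and 8.93 without those 3 genes. The cause of these changes was not tested. Of 657 named-member settings 542 kept the call and the direction, 95 gained and 18 lost a call. The other 2 turned in sign within the lower-total libraries, Isg20 in CD8 T-like cells to -0.011 and Bst2 in B-like cells to -0.10.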

Other observations

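The unnamed cluster carried member levels in the range of those of neutrophil-like cells. It held 29, 41 and 574 cells in BrM 2, BrM 3 and MFP 3, 1 cell in MFP 1 and 0 in the other libraries, so no comparison of the sites was made. Its leading genes were Inhba, Slc26a11 and Rhov, which are no markers of the lists used, and its cells were shallow. The summed member level was 20262 CPM in BrM 2, 29473 in BrM 3 and 20357 in MFP 3, against 18603, 29285 and 23485 CPM in neutrophil-like cells of the same libraries. Rsad2 was its highest member at 3029, 5175 and 4315 CPM, followed by Isg15 at 2340, 3664 and 2981 CPM. Ifitm3 stood at 2695, 3463 and 2154 CPM, above Isg15 in BrM 2 and below it in the other libraries, whereas its mean led the neutrophil-like, monocyte-like and macrophage-like classes. The median depth of its cells was 1716, 1734 and 2825 UMIs in the same libraries, and the part of depth in these values was not tested.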
